A study of Mus musculus with 8 samples.

Results

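The genes described here encode the parts of the transport and gating system of the primary cilium: the intraflagellar transport (IFT) subunits, the motors that move them, the BBSome and its accessory proteins, and the transition zone. They were chosen by name, 48 genes in all, among the 55401 genes listed in the count table, and all 48 passed the filter on low counts that left 15461 genes for testing. The table comes from RNA sequencing of mouse embryonic fibroblasts (MEFs), 4 SLMAP3-/- and 4 WT lines, with 1 library per line. All 8 lines share the B6C3F1 strain, were grown from E14.5 embryos, taken in mid gestation, after head and organs had been removed, were immortalized with SV40 large T antigen and were kept in medium with fetal bovine serum. In the SLMAP3-/- mice the floxed exon 3 of Slmap had been removed by a Cre driven by the CMV promoter, which acts in many tissues. The labels number the lines as separate samples without saying which embryo or litter gave each, so the p-values below measure the spread between lines. In the column names, SLMAP3-/- replicate 3 (MEF10A) shares its number with WT replicate 4 (MEF10B). What the numbers and letters stand for is not stated. Lines are named by genotype and replicate number.

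The primary cilium is a microtubule projection that most fibroblasts can grow from the older centriole when they leave the cell cycle, and it is taken apart again before mitosis. IFT-B trains carried by kinesin-2 move tubulin and other cargo towards the tip, IFT-A trains carried by dynein-2 return to the base, and the BBSome rides on them to carry membrane proteins out of the cilium. The transition zone, built from the MKS and NPHP modules, lies between basal body and shaft and decides which proteins enter. The question for these genes was whether their transcripts differ between SLMAP3-/- and WT MEFs, since the study examined the cilium of these cells. The study scored cilia in MEFs after serum starvation, while it describes the sequenced MEFs as proliferating.

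Libraries held 49878808 to 63322675 estimated counts, and every gene of the set had at least 163 counts in every line. Slmap, the targeted gene, lay between 32.7 and 44.3 CPM (counts per library of equal size, after TMM normalization) in SLMAP3-/- lines and between 124 and 143 CPM in WT lines, and no other tested gene passed the threshold of 0.05 (adjusted p = 0.00119 by the quasi-likelihood test of edgeR). The counts sum all exons of Slmap. With DESeq2, the test that the study used, further genes passed, as given at the end. The study named Arhgap36 and Cdkn1a among its changed genes. Fibroblast markers added up to 15704 to 21389 CPM in SLMAP3-/- lines and 18581 to 23447 CPM in WT lines. Single markers were less even than this sum. Pdgfra had a log2 CPM of 4.12 in WT replicate 1 and 6.30 to 7.48 in the other lines. Thy1 had 4.71 in WT replicate 2 and 6.03 to 7.68 in the others, while Col1a1 lay between 12.1 and 12.8 in all lines. The 5 epithelial markers together stayed at or under 4.68 CPM. Of the 10 markers of multiciliated cells, 9 were listed and 3 were tested, and Foxj1, the regulator of motile cilia, lay between 0.467 and 1.07 CPM, while Ccno, a regulator of centriole multiplication, ran from 0.371 CPM in WT replicate 1 to 8.98 CPM in SLMAP3-/- replicate 1. Endothelial markers together lay between 7.90 and 28.4 CPM, nearly all of it Kdr, and neural markers between 80.2 and 427 CPM, highest in WT replicate 1, where Nes had 410 CPM. Transcripts of Y-linked genes were present in 1 line of each genotype. Xist had a log2 CPM of -4.81 in SLMAP3-/- replicate 2 and -2.28 in WT replicate 3, and at least 9.74 in every other line. In such bulk samples, fewer cells that express a gene and less RNA per cell cannot be told apart.

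Levels per length, as CPM per kb averaged over the 8 lines, were highest for Arl3 and some small IFT subunits and lowest for Bbs10, Mks1 and several BBSome genes. Gene lengths were taken from the annotation as the median of a gene's coding transcripts, but for 7 genes short annotated fragments made that median much shorter than the longest coding transcript (ratios above 2), so each level was also computed with the longest coding transcript. Arl3, a small GTPase that releases lipidated cargo inside the cilium, had 41.8 CPM per kb with the median and 38.4 with the longest coding transcript, and was among the 3 highest under both. Arl3 shares 14.1% of its 31-base stretches with other genes, so part of its count is uncertain. The IFT-A subunit Ift43 followed at 30.4 and 29.995 CPM per kb, and the IFT-B subunits Ift74 at 26.6 and 23.97 and Ift20 at 33.4 and 21.5.

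The high ranks of Ift46 and Ift172 under the median length did not hold with the longest coding transcript. Ift46, a core IFT-B subunit, went from 71.5 to 10.3 CPM per kb, and Ift172, the peripheral IFT-B subunit at the turnaround, from 51.8 to 7.20. The same change moved Rpgrip1l from 38.9 to 3.23 CPM per kb. Such levels rest on the choice of transcript and were not used to order these 3 genes.

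The lowest levels belonged to Bbs10, a chaperonin-like protein needed to assemble the BBSome, with 1.35 CPM per kb, and to Mks1, a B9 domain protein of the MKS module, with 1.603, both under either length. Bbs2 had 2.12 CPM per kb under both. By subgroup, the median with the longest coding transcript was 10.9 CPM per kb for the 11 IFT-B genes and 11.7 for the 5 motor genes, against 7.67 for the 6 IFT-A genes, 3.94 for the 7 BBSome genes and 3.86 for the 10 transition zone genes. None of these 7 BBSome genes exceeded 7.88 CPM per kb, while Kifap3, the non-motor subunit of kinesin-2, reached 18.7.

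**Figure D1:**
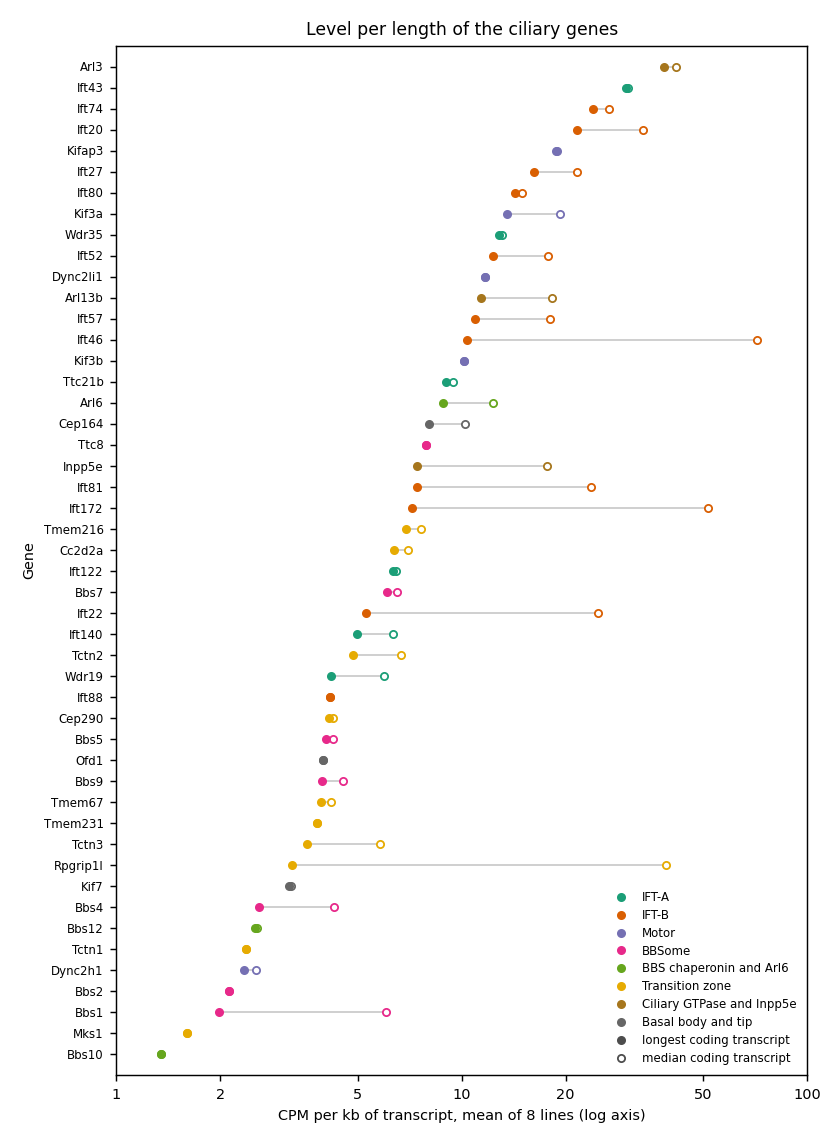
Level of each gene as CPM per kb of transcript, mean of 8 lines, on a log axis, with filled points for the longest and open points for the median coding transcript of the gene. Arl3 and Ift43 lie at the top and Mks1 and Bbs10 at the bottom, and the long grey lines mark genes such as Ift46, Ift172 and Rpgrip1l whose level depends on the transcript chosen.

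Between the genotypes, 0 of the 48 genes passed an adjusted p of 0.05 by the quasi-likelihood test of edgeR, against 0.00647% of all tested genes. An unadjusted p under 0.05 was found for 0 of the 48, against 1.81% of all tested genes, and the lowest was 0.0603, for Ift52. Log2 fold changes of SLMAP3-/- over WT ran from -0.40 for Bbs1 to 0.19 for Ift52, with 19 genes higher and 29 lower in SLMAP3-/- lines. Their median was -0.058, against -0.0014 over all tested genes. The median SD of log2 CPM between lines of the same genotype was 0.24 for these genes and 0.28 for all tested genes.

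The intervals show which changes these lines could have hidden. The 95% interval of the fold change lay inside a 2-fold change either way for 47 genes, all but Bbs1, and inside a 1.5-fold change for 35. It lay inside a 1.25-fold change for 4 genes, the kinesin-2 motors Kif3a and Kif3b, the IFT-B subunit Ift74 and Ofd1, a centriolar satellite and basal body protein. For the other 44 genes the interval reached past 1.25-fold in at least 1 direction, so a change of that size was within the error of 4 lines per genotype.

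**Figure D2:**
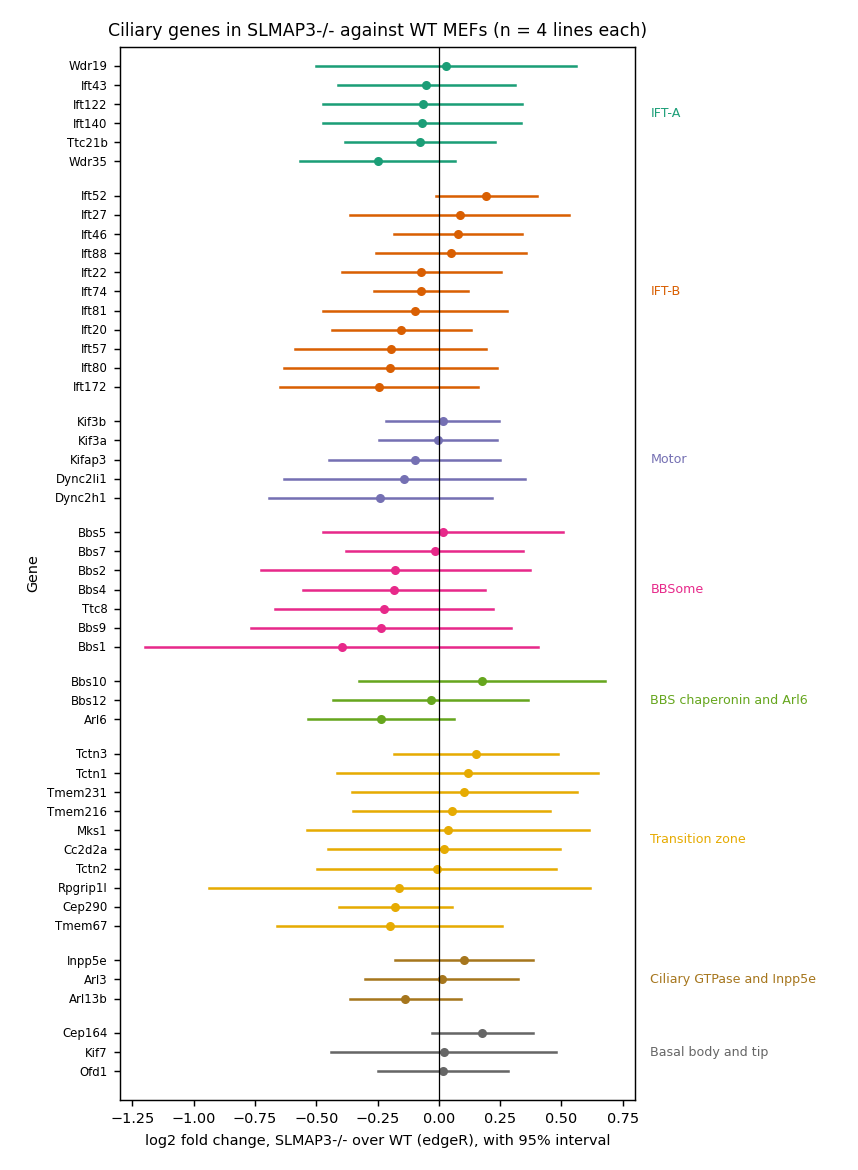
Log2 fold change of each gene, SLMAP3-/- over WT from edgeR, with its 95% interval, ordered by subgroup (n = 4 lines per genotype). Every interval includes 0, and the widest belong to Bbs1 and Rpgrip1l.

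In the IFT-A complex, which is needed for return transport and for the entry of membrane receptors, 1 of 6 genes was higher and 5 were lower in SLMAP3-/- lines, with a median log2 fold change of -0.066 and 0 past an unadjusted p of 0.05. Wdr35, a core-associated subunit, was the lowest of them. It had 49.1, 55.8, 61.3 and 45.0 CPM in SLMAP3-/- replicates 1 to 4 and 52.2, 59.6, 75.7 and 63.6 CPM in WT replicates 1 to 4. The genotypes overlapped, with WT replicate 3 above all other lines and SLMAP3-/- replicate 4 below them. Its log2 fold change of -0.25 (standard error 0.14, edgeR adjusted p = 1.00, two-sided exact permutation p = 0.171) was -0.15 without WT replicate 3.

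Ift140, a core IFT-A subunit and the median gene of the complex, had 31.1, 31.4, 43.2 and 29.6 CPM in SLMAP3-/- replicates 1 to 4 and 28.8, 29.8, 43.05 and 40.1 CPM in WT replicates 1 to 4. Its level was high in SLMAP3-/- replicate 3 and in WT replicates 3 and 4 and close to 30 in the other 5 lines, so that both genotypes span nearly the same range. Its log2 fold change was -0.068 ± 0.18 (SE). Wdr19, also a core subunit, showed the same lines on top, with 23.98, 24.5, 35.3 and 22.4 CPM in SLMAP3-/- replicates 1 to 4 and 18.6, 21.5, 36.2 and 27.8 CPM in WT replicates 1 to 4. It was among the 3 genes with the largest SD within genotypes, 0.36 on the log2 scale, and its log2 fold change was 0.029. The remaining subunits, Ift43, Ift122 and Ttc21b (the retrograde subunit IFT139), had log2 fold changes between -0.077 and -0.051.

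In the IFT-B complex, which builds the cilium and carries tubulin, 4 of 11 genes were higher and 7 lower in SLMAP3-/- lines, with a median log2 fold change of -0.074. Ift52 (ENSMUSG00000017858.12, chromosome 2, 163017354 to 163046141 of GRCm38, plus strand), a core subunit that holds the complex together, had 32.0, 28.1, 29.9 and 28.5 CPM in SLMAP3-/- replicates 1 to 4 and 25.03, 24.3, 27.4 and 26.9 CPM in WT replicates 1 to 4. Every SLMAP3-/- line lay above every WT line, with a gap of less than 1 CPM between SLMAP3-/- replicate 2 and WT replicate 3. It was the only gene of the 48 whose genotypes did not overlap, against 1.25% of all tested genes.

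The mean of Ift52 was 29.6 ± 1.76 CPM (SD, n = 4) in SLMAP3-/- and 25.9 ± 1.48 CPM (SD, n = 4) in WT lines. The log2 fold change was 0.19 (standard error 0.090, 95% interval -0.011 to 0.40, adjusted p = 1.00 in edgeR's quasi-likelihood test), and the two-sided exact permutation p was 0.0286, the smallest that 4 lines against 4 can give. Any gene whose genotypes do not overlap gets this permutation p, so it adds nothing to the lack of overlap. The difference of Ift52 separates these lines without passing the threshold over all genes.

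Ift172 stood lowest in the complex. Its SLMAP3-/- lines were close together at 35.4, 34.9, 36.9 and 35.3 CPM, while WT replicates 1 to 4 had 40.6, 27.9, 51.7 and 48.6 CPM. The WT lines enclosed all SLMAP3-/- lines, with WT replicate 2 below and the other 3 above them, giving a log2 fold change of -0.24 ± 0.18 (SE) that was -0.40 without WT replicate 2 and -0.13 without WT replicate 3. Ift74, which binds tubulin together with Ift81, was the median gene of the complex, at a log2 fold change of -0.074 ± 0.084 (SE).

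Ift88, the IFT-B subunit whose loss abolishes cilia and the only gene of the set on chromosome 14 with Slmap, had 13.0 ± 1.02 CPM (SD, n = 4) in SLMAP3-/- and 12.6 ± 1.61 CPM (SD, n = 4) in WT lines. Ift46 (0.079) and Ift27 (0.084), a Rab-like GTPase that works with the BBSome, were the other genes with positive log2 fold changes. Those of Ift20, which travels between Golgi and cilium, of Ift57 and of Ift80 were -0.15, -0.20 and -0.20, and those of Ift22 and Ift81 were -0.071 and -0.097. None of these had an unadjusted p under 0.05 in edgeR's test.

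The motor genes showed 1 of 5 higher in SLMAP3-/- lines, with a median log2 fold change of -0.099. For the heterotrimeric kinesin-2 that drives outward transport, Kif3a and Kif3b, the motor subunits, had log2 fold changes of -0.0023 and 0.015, each with a standard error near 0.10. Kifap3 ranged from 65.1 to 77.2 CPM in SLMAP3-/- lines and from 57.2 to 95.97 CPM in WT lines, with a log2 fold change of -0.099. The dynein-2 heavy chain Dync2h1 had 23.6, 31.9, 39.4 and 27.4 CPM in SLMAP3-/- replicates 1 to 4 and 30.9, 28.1, 44.05 and 41.1 CPM in WT replicates 1 to 4. Again SLMAP3-/- replicate 3 and WT replicates 3 and 4 were the highest lines, giving a log2 fold change of -0.24 ± 0.20 (SE). Its light intermediate chain Dync2li1 had a log2 fold change of -0.14.

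The BBSome had the lowest median of the subgroups, -0.18, with 1 of 7 genes higher and 6 lower in SLMAP3-/- lines and 0 past an unadjusted p of 0.05. Bbs1 (ENSMUSG00000006464.9, chromosome 19, 4886878 to 4906628 of GRCm38, minus strand), the subunit through which Arl6 binds the complex, had 8.36, 6.66, 12.6 and 10.7 CPM in SLMAP3-/- replicates 1 to 4 and 6.69, 9.44, 20.2 and 14.2 CPM in WT replicates 1 to 4. WT replicates 3 and 4 were the highest lines, and WT replicate 1 was as low as the lowest SLMAP3-/- line. Bbs1 had the largest SD within genotypes, 0.57 on the log2 scale.

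The log2 fold change of Bbs1 was -0.40 with a 95% interval from -1.20 to 0.40 (edgeR adjusted p = 1.00, two-sided exact permutation p = 0.457). It was -0.074 without WT replicate 3 and -0.60 without WT replicate 1, so the size of this difference rests on single WT lines. For the 7 BBSome genes of the set, the median without WT replicate 3 was -0.074 and without WT replicate 2 it was -0.30.

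Bbs4, which binds centriolar satellite proteins and was the median gene of the complex, had 6.10 ± 0.475 CPM (SD, n = 4) in SLMAP3-/- and 6.93 ± 0.897 CPM (SD, n = 4) in WT lines. The log2 fold change was -0.18 for Bbs2, -0.24 for Bbs9 and -0.22 for Ttc8 (BBS8), while Bbs5 and Bbs7 were at 0.018 and -0.017. The standard errors of these values lay between 0.16 and 0.24.

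Among the 3 genes that act around the BBSome, Bbs10 and Bbs12 belong to the chaperonin-like group that assembles it, and Arl6 (BBS3) recruits it to membranes. Bbs10 had 2.93, 4.46, 4.18 and 4.10 CPM in SLMAP3-/- replicates 1 to 4 and 2.73, 3.37, 3.97 and 3.81 CPM in WT replicates 1 to 4. Replicate 1 was the lowest line in each genotype and the ranges overlapped, for a log2 fold change of 0.18 ± 0.22 (SE). Bbs12 was at -0.033 and Arl6 at -0.24 (standard error 0.13).

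In the transition zone 6 of 10 genes were higher and 4 lower in SLMAP3-/- lines, with a median log2 fold change of 0.029. The tectonic genes Tctn1, Tctn2 and Tctn3, which encode secreted and membrane proteins of the MKS module, had log2 fold changes of 0.12, -0.0087 and 0.15. The membrane proteins Tmem67 (meckelin), Tmem216 and Tmem231 were at -0.20, 0.053 and 0.10. Cc2d2a, a C2 domain protein of the same module, was at 0.021, Mks1 at 0.037, and Cep290, which bridges microtubules and membrane, at -0.18 with a standard error of 0.10.

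Rpgrip1l (ENSMUSG00000033282.14, chromosome 8, 91217030 to 91313262 of GRCm38, minus strand), the scaffold on which the MKS module assembles, fell into high and low lines within each genotype. It had 18.2, 16.4, 16.0 and 34.9 CPM in SLMAP3-/- replicates 1 to 4 and 14.51, 18.2, 30.2 and 32.7 CPM in WT replicates 1 to 4. SLMAP3-/- replicate 4 and WT replicates 3 and 4 were at or above 30.2 CPM and the other 5 lines at or below 18.2 CPM. Its log2 fold change was -0.16 ± 0.34 (SE), and -0.50 without SLMAP3-/- replicate 4. Fto, its neighbour transcribed in the opposite direction and named here after its values were seen, had 128 CPM in SLMAP3-/- replicate 4, 137 and 141 CPM in WT replicates 3 and 4, and 106 to 129 CPM in the other 5 lines.

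The last genes act in the membrane and at both ends of the cilium. Arl13b, a GTPase of the ciliary membrane, and Inpp5e, the phosphatase that it brings there, had log2 fold changes of -0.14 and 0.10, and Arl3 was at 0.011. Cep164, the distal appendage protein that docks the centriole to the membrane, had 45.5, 52.3, 58.0 and 52.7 CPM in SLMAP3-/- replicates 1 to 4 and 48.7, 45.2, 44.05 and 46.4 CPM in WT replicates 1 to 4. Of the SLMAP3-/- lines 3 lay above all WT lines and replicate 1 lay among them, and the log2 fold change was 0.18 (standard error 0.091, unadjusted p = 0.0833 in edgeR's test, two-sided exact permutation p = 0.0857). Ofd1 and Kif7, the kinesin of the ciliary tip that organizes Hedgehog signalling, were at 0.016 and 0.020.

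**Figure D3:**
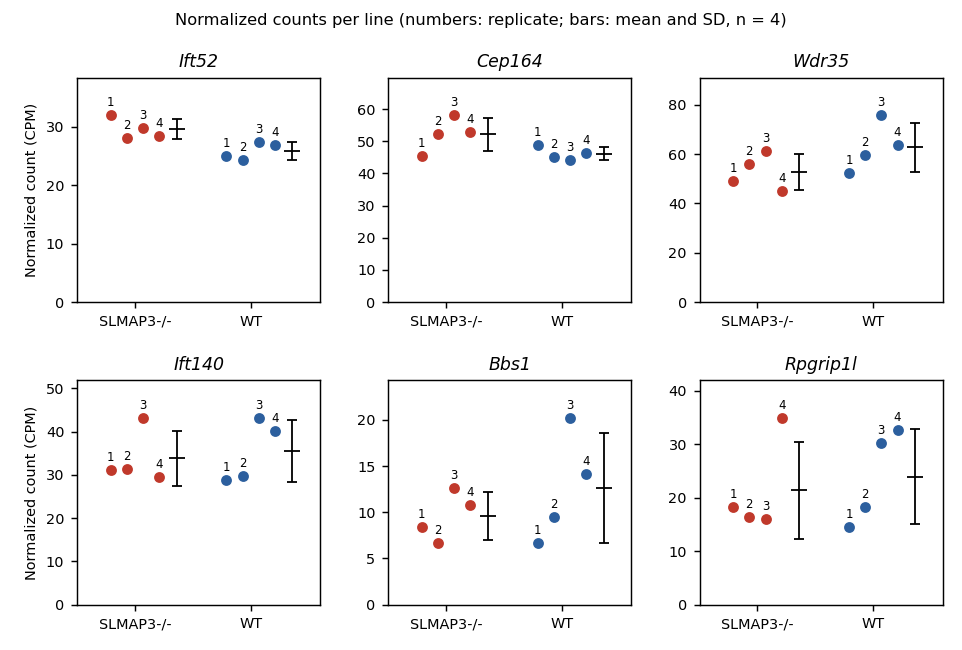
Normalized counts (CPM, axis from 0) of 6 genes in each line, with the replicate number above each point and the mean and SD of 4 lines as a bar. For Ift52 the SLMAP3-/- lines (28.1 to 32.0) lie above the WT lines (24.3 to 27.4), while Ift140, Bbs1 and Rpgrip1l have high and low lines in both genotypes.

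Lines of the same genotype also differed from each other, in parallel over many of the genes. The deviation of each gene's log2 CPM from its mean over the 8 lines, averaged over the 48 genes, was 0.22 in WT replicate 3, 0.14 in WT replicate 4 and 0.086 in SLMAP3-/- replicate 3. It lay between -0.091 and -0.042 in SLMAP3-/- replicates 1, 2 and 4 and was -0.16 in WT replicate 1 and -0.10 in WT replicate 2. Both genotypes therefore held high and low lines, and the highest and the lowest line were both WT. The same mean was taken over 78 other ciliary genes, from the wider lists below without those that are also proliferation genes. It was 0.12 in WT replicate 3, 0.057 in SLMAP3-/- replicate 3 and 0.027 in WT replicate 4. In WT replicate 4 only 36 of the 78 were above their own mean. SLMAP3-/- replicate 4 was at 0.010, and the other lines lay between -0.072 and -0.012.

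In WT replicate 3, 42 of the 48 genes were above their own mean, against 38 in WT replicate 4, 33 in SLMAP3-/- replicate 3 and 11 in WT replicate 1. WT replicate 3, WT replicate 4 or SLMAP3-/- replicate 3 was the highest line for 33 genes, and for 15 these were exactly the 3 highest lines. Over all tested genes the same held for 38.3% and 9.46%, and since the 3 lines were singled out by the mean of these 48 genes, the counts are a description. The 15 were 5 of the 6 IFT-A genes (all but Ift43), Ift80, Kif3a, both dynein-2 genes, Bbs1, Bbs2, Bbs9, Ttc8, Tmem67 and Tctn2. As a description over 8 lines that share the same libraries for every gene, the first principal component held 40.7% of the variance of the 48 genes. The mean Pearson r over their 1128 pairs was 0.23, against 0.00072 over all tested genes, and it was 0.62 within IFT-A, 0.42 among the motors, 0.32 within IFT-B, 0.31 in the transition zone and 0.24 in the BBSome. In the 3 subgroups of 3 genes it was below 0, at -0.42 for Bbs10, Bbs12 and Arl6, -0.28 for Cep164, Ofd1 and Kif7 and -0.027 for Arl3, Arl13b and Inpp5e.

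Not all genes followed. Bbs12, Bbs5, Ofd1, Cep290, Arl13b, Cep164 and Arl6 had loadings of the opposite sign on that component, the strongest being Bbs12 at -0.18 and Bbs5 at -0.12. Bbs5 was highest in SLMAP3-/- replicate 4, with 8.24 CPM, and lowest in SLMAP3-/- replicate 3, with 4.84 CPM.

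**Figure D4:**
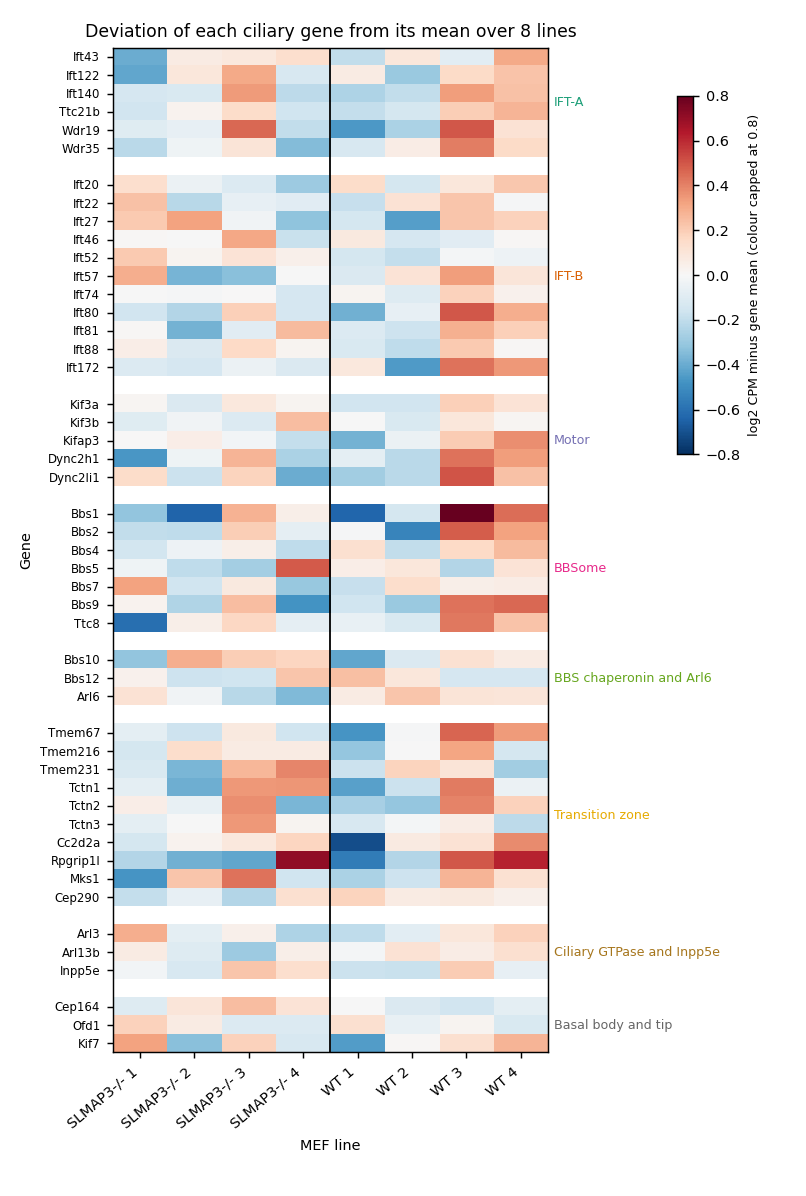
Deviation of each gene's log2 CPM from its mean over 8 lines, genes by subgroup and lines in columns, with the colour capped at 0.8. WT 3 and WT 4 are red for most genes, SLMAP3-/- 3 for the IFT-A genes, and WT 1 is blue for most, while the genotypes as a whole do not separate.

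Other measures moved with these lines, and their part in the pattern was not tested. The normalization factors were highest in WT replicate 3 (1.06), SLMAP3-/- replicate 3 (1.04) and WT replicate 4 (1.02). The mean deviation over all tested genes was 0.074, 0.057 and 0.081 in those lines and -0.10 in WT replicate 1, while its median stayed between -0.010 and 0.019 in every line. With library size alone in place of TMM, an alternative chosen after seeing the data, the mean deviation of the 48 genes was 0.31 in WT replicate 3, 0.17 in WT replicate 4 and 0.14 in SLMAP3-/- replicate 3, and negative in the other 5 lines.

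Of 8 proliferation genes, 4 had these as their 3 lowest lines, as did 11.2% of all tested genes. Aurka, the mitotic kinase that also starts cilium disassembly, had 74.4 CPM in SLMAP3-/- replicate 3, 77.6 in WT replicate 3 and 68.5 in WT replicate 4, against 95.2 to 149 in the other 5 lines. Ccnb1, the mitotic cyclin, had 176, 180 and 157 CPM in the same lines and 206 to 285 in the others, and Top2a, which untangles chromosomes, had 530, 566 and 511 CPM against 591 to 853. Cdk1, the kinase of mitotic entry, had 158, 164 and 171 CPM against 179 to 249. Averaged over 8 proliferation genes, the deviation was -0.12, -0.11 and -0.21 in these lines and 0.33 in SLMAP3-/- replicate 4. Plk1 followed in part, lowest in WT replicates 4 (122 CPM) and 3 (129 CPM), with WT replicate 1 (140 CPM) below SLMAP3-/- replicate 3 (143 CPM). Mki67 and the replication genes Pcna and Mcm2 did not follow the 3 lines, and Pcna was highest in SLMAP3-/- replicate 3, with 317 CPM.

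Rbl2, the pocket protein p130 of quiescent cells, had 64.8 CPM in SLMAP3-/- replicate 3, 63.2 in WT replicate 3 and 64.0 in WT replicate 4, against 42.0 to 55.3 in the other lines. E2f4, the E2F factor that p130 binds, went the other way, with 66.5, 59.9 and 62.3 CPM in the same lines against 75.8 to 102 in the others. Both genes were named after their values were seen. Of the RFX factors, which bind ciliary promoters, only Rfx2 of the 5 tested was highest in the same 3 lines, at 4.18, 5.49 and 4.83 CPM. Rfx3 was highest in SLMAP3-/- replicate 3 (22.8 CPM) and WT replicate 3 (22.0 CPM) but had 12.7 CPM in WT replicate 4, below 6 other lines. Rfx5 was highest in WT replicate 3 (log2 CPM 5.01), followed by SLMAP3-/- replicate 4 (4.98) and SLMAP3-/- replicate 3 (4.94), and had 4.67 in WT replicate 4. Rfx1 was highest in SLMAP3-/- replicate 4 (37.4 CPM), and Rfx7 was highest in WT replicate 1 (107 CPM) and lowest in WT replicate 4 (74.1 CPM).

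**Figure D5:**
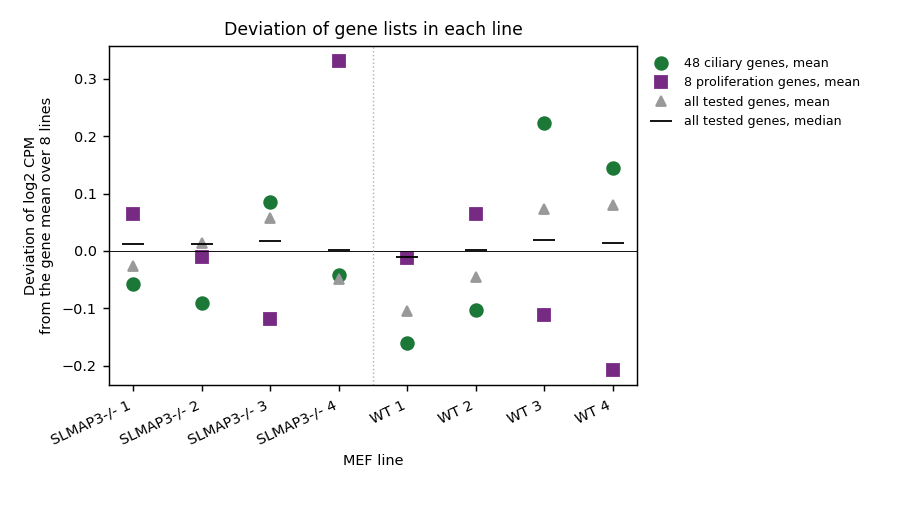
Deviation of log2 CPM from the gene mean over 8 lines, averaged per line over the 48 ciliary genes, 8 proliferation genes and all tested genes, with the median of all tested genes as a bar. The ciliary genes are above 0 in SLMAP3-/- 3 (0.086), WT 3 (0.22) and WT 4 (0.14), where the proliferation genes are below 0.

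RFX factors bind the X-box, a pair of inverted half-sites, and the promoters of the 48 genes were searched for it. Whether the motif has a part in the pattern between lines was not tested. RefSeq promoters of the GRCm38.p6 build, 250 bases before to 50 after each annotated start, were at hand for 43 of the 48 genes (all but Tmem67, Dync2li1, Ift80, Ift122 and Ift81). The letters GTTNCC, 1 to 3 further bases and GGNAAC, searched on both strands, occurred in 5 of the 43 genes (11.6%) and in 0.903% of 27025 genes with such a promoter. With the first half-site relaxed to GTNNCC and 0 to 3 bases between, a form that includes the stricter matches, they occurred in 11 of 43 (25.6%) against 2.68%. The single half-site GTTGCC on either strand was in 18 of 43 (41.9%) against 14.1%, and CCAAT, the NF-Y motif, in 27 of 43 (62.8%) against 41.1%. Among genes that passed the filter on low counts the shares were 0.983%, 3.42%, 14.7% and 43.2%. A match describes letters and not a bound site.

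The promoters with the stricter form belong to the BBSome gene Bbs7, the IFT-B gene Ift57 and the transition zone genes Mks1, Tctn1 and Tctn3. They are printed 5′ to 3′ on the strand of the gene with the match in capitals. They lie at chr3:36613467-36613540 (minus strand), chr16:49699204-49699276 (plus), chr11:87853161-87853214 (plus), chr5:122264411-122264424 (minus) and chr19:40612329-40612401 (minus). For Tctn1 the match lies after the start, and only the match is given.
Bbs7: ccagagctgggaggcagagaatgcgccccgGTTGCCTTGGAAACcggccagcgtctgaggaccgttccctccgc
Ift57: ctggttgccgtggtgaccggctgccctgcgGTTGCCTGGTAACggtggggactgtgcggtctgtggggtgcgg
Mks1: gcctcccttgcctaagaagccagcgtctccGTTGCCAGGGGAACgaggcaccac
Tctn1: GTTGCCCGGGCAAC
Tctn3: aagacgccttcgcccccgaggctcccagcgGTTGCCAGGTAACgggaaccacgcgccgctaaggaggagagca

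These 5 genes were not among the 15 whose 3 highest lines were SLMAP3-/- replicate 3 and WT replicates 3 and 4. Of the genes with only the relaxed form, Bbs1 and Tctn2 were among the 15. Ift80, Ift122, Dync2li1 and Tmem67 of the 15 had no promoter to search. The half-site GTTGCC occurred in Ift140, Wdr35, Kif3a, Dync2h1, Bbs1 and Tctn2, and not in Ttc21b, Wdr19, Bbs2, Bbs9 and Ttc8. The spread of the 5 genes between lines lay on both sides of the median. Bbs7 and Ift57 had SDs within genotypes of 0.22 and 0.26 on the log2 scale and Tctn3 0.16, against a median of 0.24 over the 48 genes, while Mks1 and Tctn1 had 0.33 and 0.36. Bbs1, with the largest SD, held only the relaxed form, at chr19:4906613-4906626, after the start. The match reads on the plus strand, opposite to the gene. The letters are printed on the minus strand of the gene and so are the reverse complement of the form.
Bbs1: GTTGCCAAGGCGAC

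Other genes of the cilium, 83 further genes listed by function, gave a background for the set. Of these 80 were tested (all but Kif17, Rfx4 and Sstr3), 41 higher and 39 lower in SLMAP3-/- lines, with a median log2 fold change of 0.0012 and 0 past the adjusted threshold of edgeR's test. An unadjusted p under 0.05 was found for 1 of the 80, against 1.81% of all tested genes. This gene was Anks6, an ankyrin protein of the inversin compartment next to the transition zone. It had 11.3, 8.37, 10.8 and 11.4 CPM in SLMAP3-/- replicates 1 to 4 and 7.53, 6.71, 7.87 and 8.23 CPM in WT replicates 1 to 4. No line of one genotype overlapped the other, which held for 1 of the 80 and for 1.25% of all tested genes. The log2 fold change of Anks6 was 0.46 (standard error 0.15, unadjusted p = 0.0156, adjusted p = 1.00 in edgeR's test, two-sided exact permutation p = 0.0286). This permutation p again follows from the lack of overlap alone.

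Of the 8 remaining IFT subunits and associated genes in these lists 2 were higher and 6 lower, with a median log2 fold change of -0.067. The 2 higher were Rabl2 (0.017) and Ttc30a2 (0.21), and Ttc30a2 had only 6 to 40 counts per line. Ttc26 (IFT56) was at -0.23, Hspb11 (IFT25) at -0.12 and Cluap1 (IFT38) at -0.071, and Ttc30a1, Ttc30a2 and Ttc30b are near-identical copies whose counts are uncertain. Among 6 other BBS genes 1 was higher and 5 were lower, with a median log2 fold change of -0.059 and Bbip1 at -0.020. Of 18 further transition zone and NPHP genes 9 were higher and 9 lower, with Rpgr at -0.27 and Ahi1 at -0.20. Basal body, appendage and vesicle genes also split, 9 of 16 higher, with Cep97, which caps the mother centriole, at -0.28 and Odf2, a subdistal appendage protein, at 0.24, and with unadjusted edgeR p-values of 0.0812 and 0.125.

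Cilium disassembly genes were higher in SLMAP3-/- lines for 7 of 8, with a median log2 fold change of 0.19 and 0 with an unadjusted p under 0.05. Plk1 (0.28, unadjusted p = 0.0632 in edgeR's test), Kif24 (0.30, 0.0838) and Tchp (0.23, 0.123) had the lowest p-values among them, and Nedd9 was the gene on the other side, at -0.16. Plk1 and Aurka are also proliferation genes, whose list of 8 had a median of 0.18. SLMAP3-/- replicate 4 had the highest level of both, 200 CPM for Plk1 and 149 CPM for Aurka.

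Centrosomal partners of SLMAP3 named by the study were also at hand: Pde4dip (myomegalin) was at -0.26, Akap9 at 0.069, Pcm1 at -0.033, and 0 of the 5 had an unadjusted p under 0.05. Ciliary membrane cargo such as Adcy3 (-0.12), Gpr161 (0.10) and Pkd1 (0.10) and the kinesin-2 subunit Kif3c (-0.15) did not pass the test either. The annotation places exons of another gene on the opposite strand of 12 of the 48 genes, among them Ift88, Arl6, Bbs4, Tmem67, Cep290, Inpp5e and Ofd1, and on the same strand of Bbs12. The library kit was stranded, but the sources used here do not give the strand setting of the counting, so reads of such pairs may be shared.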

How the data were processed

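RNA-seq of 4 SLMAP3-/- and 4 WT lines of MEFs was analysed. The authors assigned reads to GRCm38 transcripts with Salmon and deposited an estimated count for each gene and line, adjusted for transcript length but left without normalization across libraries. Their table of the comparison between genotypes holds log2 fold changes and p-values of their own and was not used. Salmon's version is not given in the sources used here.

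Estimated counts were rounded. In R 4.3.3, edgeR 4.0.16 filtered genes with filterByExpr (minimum count 10), normalized by TMM and ran the quasi-likelihood test without covariates, with Benjamini-Hochberg adjustment over 15461 genes and a threshold of 0.05. Fold changes have standard errors from the F statistic and 95% intervals. Log2 CPM used a prior count of 2, and exact permutation tests over the 70 assignments of lines were two-sided. Counting error is small at these depths, with 163 counts as the lowest value of a member. Positions and transcript lengths came from GENCODE M21 on GRCm38.

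The members and gene lists were chosen with earlier results of these data known. The members described in detail are those with an unadjusted p under 0.05 or without overlap between genotypes, the 3 highest and the 3 lowest by fold change and by level per length, the 3 with the largest SD within genotypes and the median member of each subgroup, which gave 19. Up to 3 genes per wider list were taken by unadjusted p, and Slmap was named as the target.

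Alternatives were DESeq2 1.42.0, limma-voom (limma 3.58.1), DESeq2's size factors, library size alone, no filter, a minimum of 10 counts in each of the libraries, robust estimation of the prior, unrounded counts, the replicate number as a block, summed expression of 4 Y-linked genes as covariate, an adjusted p under 0.1, a prior count of 0.5, other transcript lengths and leaving out each line. The longest coding transcript and the other normalizations of the line means were added after seeing the data. edgeR, DESeq2 and limma-voom were tested on simulated data.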

Additional observations from a re-analysis of the deposited data

Results flagged for a closer look

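Within each genotype, the highest and lowest of the 4 lines was compared with the nearest other line for the 48 genes and Slmap, which gave 98 groups. In 5 of them the gap, as a share of the whole range, was above Dixon's 95% critical value, against 4.9 that chance gives, since chance flags about 1 in 20 groups. SLMAP3-/- replicate 3 stood above the other lines of its genotype for Ift140, with a gap of 0.87 of the range (43.2 against 29.6 to 31.4 CPM), and for Wdr19, with 0.839 (35.3 against 22.4 to 24.5 CPM). SLMAP3-/- replicate 4 stood above the others for Rpgrip1l, with 0.887 (34.9 against 16.0 to 18.2 CPM), and below them for Ift74, with 0.933 (46.6 against 51.0 to 51.3 CPM). SLMAP3-/- replicate 1 stood below the others for Ift43, with 0.844 (17.7 against 24.3 to 25.6 CPM).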

How the results depend on the processing

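Under every alternative 0 of the 48 genes passed the threshold. The number with an unadjusted p under 0.05 was 1 in DESeq2 (Ift52) and 0 to 2 when a line was left out: Arl6 and Cep164 without SLMAP3-/- replicate 1, Cep290 without SLMAP3-/- replicate 4, Tmem67 and Wdr35 without WT replicate 1, and Ift172 without WT replicate 2. Over all genes, the number past the threshold was 11 in DESeq2 and 1 whichever line was left out. Correlations of the deviations of same-numbered lines were -0.16, 0.058, 0.19 and -0.0032. Those of differently numbered lines of the 2 genotypes ran from -0.16 to 0.18. These values show no general pairing by replicate number, but they cannot tell whether single lines share a litter or batch. For SLMAP3-/- replicate 3 and WT replicate 4, which share a number in the column names, the correlation was 0.13. A block by that number was not fitted. With the replicate number as a block, 0 genes passed the threshold over all genes, Slmap was at -1.84 without passing it, and 0 of the 48 had an unadjusted p under 0.05. Left-out lines moved the median log2 fold change of the 48 genes between -0.11 and 0.0032, of IFT-A between -0.16 and 0.0098, of IFT-B between -0.13 and -0.0077, of the motors between -0.22 and 0.025, of the BBSome between -0.30 and -0.074, of Bbs10, Bbs12 and Arl6 between -0.12 and 0.052, of the transition zone between -0.065 and 0.14, of Arl3, Arl13b and Inpp5e between -0.092 and 0.077, and of Cep164, Ofd1 and Kif7 between -0.045 and 0.13. Among the genes described in detail, signs changed only when a line was left out, over ranges of -0.092 to 0.088 for Arl3, -0.12 to 0.052 for Bbs12, -0.15 to 0.17 for Cc2d2a, -0.21 to 0.038 for Ift140, -0.020 to 0.15 for Ift46, -0.10 to 0.13 for Kif7, -0.22 to 0.020 for Kifap3, -0.12 to 0.18 for Mks1, -0.50 to 0.029 for Rpgrip1l and -0.14 to 0.23 for Wdr19. With the sign kept, left-out lines gave ranges of -0.60 to -0.074 for Bbs1, 0.080 to 0.29 for Bbs10, -0.34 to -0.030 for Bbs2, -0.27 to -0.13 for Bbs4, 0.12 to 0.24 for Cep164, -0.40 to -0.13 for Ift172, 0.16 to 0.22 for Ift52, -0.12 to -0.022 for Ift74 and -0.33 to -0.15 for Wdr35. No other alternative changed a sign, and apart from the calls given none changed. The spread between 4 lines per genotype limits the comparison more than depth.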
